A study of Mus musculus with 8 samples.

Results

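The strongest B-type regions of the genome were examined for their contacts between chromosomes (trans contacts) in mouse embryonic stem cells (mESCs) treated with L1 AMO or SCR AMO. The regions were 955 bins of 500 kb, 477.5 Mb in all, out of 4780 autosomal bins that passed a coverage limit. They were chosen on contacts within chromosomes (cis) of the SCR AMO samples, as the lowest 20% of the bins of each autosome by eigenvector 1 of the correlation map. Contacts between autosomes took no part in that eigenvector, whereas balancing used all contacts. These 955 bins are called the strongest B bins, and the 955 bins with the highest 20% of values on each autosome are called the strongest A bins.

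Chromatin of interphase nuclei falls into A compartments, which are gene-rich, transcribed and mostly internal, and B compartments, which are gene-poor, late-replicating and largely held at the nuclear lamina and around nucleoli. In mouse cells the B compartment is rich in long interspersed elements of the L1 family, and the A compartment in short B1 elements. In a Hi-C map, contacts between chromosomes are sparse, and B regions of different chromosomes meet mainly at shared sites such as nucleoli, chromocentres and the lamina.

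The mESCs received L1 AMO, an antisense morpholino oligo against L1 RNA, or SCR AMO, a scramble control oligo, by nucleofection at 5 nmol per 100 μl. Cells that had taken up the oligo were enriched by FACS at 12 h, and all cells were harvested at 36 h. The study asked what L1 RNA contributes to higher-order chromatin structure, and its replicates came from separate transfections. Each group had 2 samples. The oligos that define the groups are shown 5′ to 3′, since they are the only designed difference between them.
L1 AMO: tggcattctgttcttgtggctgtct
SCR AMO: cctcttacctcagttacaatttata
Both are 25 bases long, with a GC content of 48% in L1 AMO and 32% in SCR AMO.

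The matrices held 112381720 contacts in SCR AMO replicate 1, 22252054 in SCR AMO replicate 2, 58030519 in L1 AMO replicate 1 and 46263849 in L1 AMO replicate 2. Pairs of strongest B bins on different autosomes, 430501 in number, shared 632044, 137013, 272342 and 223664 contacts in these samples. No contact was seen for 26.0% of the pairs in the deepest sample and for 73.2% in the shallowest, so single pairs of bins were not tested. Summed over all partners, a strongest B bin had a median of 1296 contacts with the others in SCR AMO replicate 1 and of 280 in SCR AMO replicate 2, against 556 and 455 in the L1 AMO replicates. The totals of both SCR AMO matrices departed from the count of valid read pairs listed for these libraries, and those of the L1 AMO matrices were close to it. Any such difference in the making of the matrices cannot be told apart from the AMO.

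The samples also differed in coverage, over autosomes 1 and 14 and over a run of bins on autosome 6. Coverage is the number of contacts of a bin relative to the median over the kept bins of the autosomes other than 1, 6 and 14. These autosomes were kept out of that median after the coverage was seen. Autosome 1 had a median coverage of 0.960 and 0.961 in SCR AMO and of 1.35 and 1.39 in L1 AMO. On autosome 14 it was 0.829 and 0.842 against 1.15 and 1.22. Both autosomes were thus higher in both L1 AMO samples, by 0.51 on the log2 scale in each case. A run of 38 bins on autosome 6 (chr6:64500001-83500000, mm9), which holds 15 strongest B bins, had 0.437 and 0.456 in SCR AMO and 0.853 and 0.900 in L1 AMO, a log2 difference of 0.97. The 17 autosomes other than 1 and 14 differed by -0.09 to 0.07. Autosome 8 stood at 1.36, 1.37, 1.33 and 1.34, high in every sample.

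Autosomes 1 and 14 also shared many contacts in L1 AMO. The bin pair with the most such contacts, chr1:132000001-132500000 with chr14:97500001-98000000, had 1 contact in SCR AMO replicate 1 and 0 in SCR AMO replicate 2, but 132 and 95 in the L1 AMO replicates. The level between 120 and 130 Mb of autosome 1 and 100 and 110 Mb of autosome 14 was 0.645 and 0.650 in SCR AMO and 6.32 and 6.62 in L1 AMO. Between 130 and 140 Mb of autosome 1 and 90 and 100 Mb of autosome 14 it was 0.629 and 0.633 against 5.57 and 5.58. Both places were thus far higher in both L1 AMO samples. The number of copies and the arrangement of these regions in the cells were not measured in another way, and their part cannot be told apart from that of the AMO. The main results are therefore also given without autosomes 1, 6 and 14, which leaves 3861 bins and 771 strongest B bins. This alternative was added after seeing the data.

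The level of a set of bin pairs is their mean balanced contact frequency divided by the mean over all pairs of kept bins on different autosomes in the same sample, so that 1 is the genome average. Strongest B bins reached a level of 0.903 and 0.931 among themselves in SCR AMO and of 0.982 and 1.03 in L1 AMO. The L1 AMO samples were the higher ones, without overlap. The means were 0.917 ± 0.0204 and 1.01 ± 0.0341 (SD, n = 2 each), a log2 difference of 0.13 or 9.73%. The smallest two-sided p that exact permutation of 2 against 2 samples allows is 0.333, so groups are described here by whether they overlap. Without autosomes 1, 6 and 14 the levels were 0.894 and 0.921 against 0.966 and 1.02, again without overlap, with a log2 difference of 0.13.

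The direction of this difference depended on the balancing. In the values above, each bin was balanced over its cis and trans contacts together, and the cis share of the contacts differed between the groups. When balancing used trans contacts only, the level among strongest B bins was 1.33 and 1.29 in SCR AMO and 1.28 and 1.26 in L1 AMO. Both L1 AMO samples were then the lower ones, and the log2 difference was -0.05. Without autosomes 1, 6 and 14 this balancing gave 1.34 and 1.29 against 1.29 and 1.26, with the groups apart in the same direction. Without any balancing, with the expected value taken from the trans coverage of both bins, the levels were 1.55 and 1.45 in SCR AMO and 1.42 and 1.35 in L1 AMO, a log2 difference of -0.12. Whether the strongest B bins had the higher level among themselves in L1 AMO or in SCR AMO thus depended on the contacts used for balancing. In each case the level is relative to the mean trans contact of the sample.

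The raw shares of trans contacts also differed between the groups, and their part in the turn of direction was not tested. Trans contacts made up 21.1% and 22.9% of all contacts of the strongest B bins in SCR AMO, and 16.5% and 15.6% in L1 AMO. For all kept autosomal bins the shares were 26.1% and 27.1% against 18.9% and 17.2%. For the strongest A bins they were 30.7% and 31.2% against 21.2% and 18.8%. The trans share was lower in both L1 AMO samples in each class. The difference was -5.95 percentage points for the strongest B bins, -8.51 for all bins and -10.9 for the strongest A bins. Over the strongest B bins outside autosomes 1, 6 and 14 it was -6.03. Contacts within a bin took 16.1% and 17.6% of the contacts of the strongest B bins in SCR AMO and 17.6% and 18.7% in L1 AMO, with overlap between the groups. For the strongest A bins they took 18.9% and 21.0% against 23.6% and 25.7%, without overlap. When contacts within a bin were left out before balancing, the B-B level was 0.908 and 0.932 in SCR AMO and 0.955 and 0.989 in L1 AMO. It stayed higher in both L1 AMO samples, with a log2 difference of 0.08 in place of 0.13.

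Partners of the strongest B bins can be ordered by compartment, in 5 classes (quintiles) from the strongest B bins themselves to the strongest A bins. With genome-wide balancing, the level with quintile 2 was 0.887 and 0.909 in SCR AMO and 0.977 and 1.02 in L1 AMO. With quintile 3, in the middle of the ranking, it was 0.806 and 0.832 against 0.879 and 0.916. With both of these the L1 AMO samples were the higher ones, by 0.15 and 0.13 on the log2 scale. With quintile 4 the values were 0.695 and 0.736 against 0.735 and 0.768, and the groups overlapped. With the strongest A bins they were 0.619 and 0.674 against 0.639 and 0.661, and the L1 AMO values lay between those of the SCR AMO replicates. Over all autosomal partners the level of the strongest B bins was 0.782 and 0.817 in SCR AMO and 0.843 and 0.879 in L1 AMO, without overlap. Its direction turned with balancing of trans contacts only, at 0.9892 and 0.9913 against 0.9887 and 0.9887. Without any balancing it also turned, at 1.09 and 1.06 against 1.05 and 1.03. With genome-wide balancing and autosomes 1, 6 and 14 left out, the levels stayed higher in both L1 AMO samples with quintiles 2 and 3. They overlapped with quintile 4 and the strongest A bins. With this balancing, the difference in the B-B level was therefore shared with partners of the neighbouring classes and the groups overlapped with the strongest A bins. There the log2 difference was -0.05 without SCR AMO replicate 1 and 0.07 without SCR AMO replicate 2, each without overlap, so its direction rested on the library left out. With balancing of trans contacts only, the level with quintile 2 was 1.20 and 1.18 in SCR AMO and 1.19 and 1.18 in L1 AMO, with overlap.

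Strongest A bins had levels among themselves of 2.19 and 2.04 in SCR AMO and 2.04 and 1.88 in L1 AMO. The groups were barely apart, and they overlapped at 2.27 and 2.13 against 2.15 and 1.98 without autosomes 1, 6 and 14. The ratio of the B-B to the A-A level within a sample sets both classes against each other directly. It was 0.413 and 0.455 in SCR AMO and 0.480 and 0.547 in L1 AMO, higher in both L1 AMO samples, with a log2 difference of 0.24. With contacts within a bin left out, the groups overlapped, at 0.408 and 0.445 against 0.445 and 0.490, a log2 difference of 0.13. Without L1 AMO replicate 2 the log2 difference of the ratio was 0.15. Leaving out autosomes 1, 6 and 14 gave ratios of 0.393 and 0.433 against 0.448 and 0.514, still apart, with a log2 difference of 0.22. With each library left out in turn, that of the A-A level ran from -0.17 without L1 AMO replicate 1 to -0.05 without L1 AMO replicate 2, against -0.11 with all 4. With balancing of trans contacts only, the ratio turned to 0.866 and 0.869 in SCR AMO and 0.806 and 0.800 in L1 AMO, lower in both L1 AMO samples, and the A-A level was then 1.54 and 1.48 against 1.59 and 1.57. By partner class, this balancing gave quintile 3 levels with the strongest B bins of 0.987 and 0.990 in SCR AMO and 1.01 and 1.01 in L1 AMO. With quintiles 2 and 4 the groups overlapped. In that scale the strongest B bins thus had higher levels with the middle of the ranking and lower levels among themselves in both L1 AMO samples.

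Contacts within chromosomes are given only as a description, since the SCR AMO cis maps chose the bins. Beyond 10 Mb, pairs of strongest B bins had observed/expected values of 1.35 and 1.36 in SCR AMO and 1.28 and 1.29 in L1 AMO. Pairs of a strongest B bin and a strongest A bin had 0.432 and 0.429 against 0.528 and 0.551. Pairs of strongest A bins had 1.80 and 1.82 against 1.63 and 1.55. Since the bins are extremes of the SCR AMO maps, no difference between the groups is read from these values. With bins chosen by the eigenvector of L1 AMO, the log2 difference of the B-B value beyond 10 Mb was -0.04, against -0.07. Up to 2 Mb the A-A values were 0.813 and 0.809 in SCR AMO and 0.887 and 0.899 in L1 AMO, the other order than beyond 10 Mb. From 2 to 10 Mb the B-B values were 1.33 and 1.33 against 1.26 and 1.24, and beyond 40 Mb they were 1.30 and 1.30 against 1.26 and 1.28.

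Each kept autosomal bin was then tested for its summed trans contacts with the strongest B bins by edgeR's quasi-likelihood test, with the expected count from genome-wide balancing as offset and Benjamini-Hochberg adjustment over all 4780 bins at an FDR of 0.05. Of the 955 strongest B bins, 220 rose and 1 fell in L1 AMO, where 19.6% of all bins rose and 0.544% fell. The share of risers among them, 23.0%, was close to that background. Contacts between a pair of strongest B bins count for both bins, so the bins are not independent. The median log2 change was 0.12 over the strongest B bins and 0.09 over all bins. By class, 272 of 964 bins of quintile 2 rose, 229 of 957 of quintile 3, 124 of 949 of quintile 4 and 90 of the 955 strongest A bins. Scaling by TMM without an offset called 865 of all bins as risen and 687 as fallen, against 935 and 26 with the offset, and 217 and 17 of the strongest B bins. DESeq2 called 88 strongest B bins as risen and 0 as fallen, against 294 and 0 of all 4780 bins, and 0 strongest B bins fell at an unadjusted p under 0.05. The count depended on the libraries used, and 79 strongest B bins rose without SCR AMO replicate 1, of 266 bins in all, and 114 without L1 AMO replicate 2, of 408 in all. Leaving out a library leaves 1 sample in its group, with the spread taken from the other group, and lowers the depth, whose part in these counts was not tested.

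The calls were concentrated on the autosomes with higher coverage. On autosome 1, 77 of 77 strongest B bins rose, where 88.6% of all its kept bins did, and on autosome 14, 47 of 48, where 73.3% did. On autosome 6, 19 of 59 rose, where 20.5% of its bins did, and inside the run of higher coverage 15 of 15 did, like all 38 bins there. On the other autosomes 77 of 771 rose, or 9.99%, close to the 9.25% of all their bins. When autosomes 1, 6 and 14 were left out of the counts and the balancing, 107 of 771 rose and 0 fell, where 10.7% of the 3861 bins rose and 0.207% fell. At an unadjusted p under 0.05 in that edgeR fit, 296 of them rose and 1 fell, against 1114 and 41 of all 3861 bins. Of the 77 and the 107 risers on these autosomes, 65 were shared. The median log2 change was 0.14 over the strongest B bins and 0.11 over all bins, a difference of 0.04.

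With the offset from trans contacts only, few bins were called. Of the strongest B bins 3 rose and 10 fell, where 1.19% of all bins rose and 0.356% fell, and their median log2 change was -0.05. In the fit that left out autosomes 1, 6 and 14, 0 of 771 rose and 0 fell in edgeR, where 0.0777% and 0.0259% of the 3861 bins did. At an unadjusted p under 0.05, 6 of them rose and 93 fell, against 180 and 168 of all 3861 bins. Moving from the first offset to the second shifted the median over all 3861 bins from 0.11 to 0.00 on the log2 scale. Relative to it, the median of the strongest B bins was 0.04 with the first and -0.05 with the second.

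The strongest B bins with the lowest p lay near the bins with the most contacts between autosomes 1 and 14. At chr14:98000001-98500000 the level with other strongest B bins was 0.881 and 0.974 in SCR AMO and 1.51 and 1.50 in L1 AMO. Its log2 change was 0.81 (SE 0.06, edgeR adjusted p = 4.25e-34). At chr1:131500001-132000000 the level was 0.901 and 0.851 against 1.40 and 1.49, a log2 change of 0.78 (SE 0.06, edgeR adjusted p = 1.07e-31). Both bins were higher in both L1 AMO samples by more than any spread between replicates. The other 3 with the lowest p were chr14:102500001-103000000, chr14:98500001-99000000 and chr14:97500001-98000000, with log2 changes of 0.73, 0.67 and 0.62. With the offset from trans contacts only, the bin on autosome 1 still rose by 0.32 (edgeR adjusted p = 5.42e-08) and chr14:102500001-103000000 by 0.21 (edgeR adjusted p = 0.00268), and the other 3 were not called.

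The single strongest B bin that fell was chr19:17500001-18000000. Its level was 1.16 and 1.09 in SCR AMO and 1.02 and 1.03 in L1 AMO, with a log2 change of -0.17 (SE 0.07, edgeR adjusted p = 0.0472). It fell further in its contacts with the strongest A bins, from 0.964 and 1.01 to 0.729 and 0.817, a log2 change of -0.34 (SE 0.06, edgeR adjusted p = 5.32e-06). The fall with other strongest B bins was not called without autosomes 1, 6 and 14 (log2 change -0.14, edgeR adjusted p = 0.155) or with the offset from trans contacts only (log2 change -0.13, edgeR adjusted p = 0.234). The fall with the strongest A bins was called without these autosomes (log2 change -0.30, edgeR adjusted p = 0.000636), but not with the trans-only offset as well (log2 change -0.09, edgeR adjusted p = 0.396).

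Away from autosomes 1, 6 and 14, the bin with the lowest p was chr9:39500001-40000000, at 0.945 and 1.06 in SCR AMO and 1.27 and 1.25 in L1 AMO. Its log2 change was 0.35 (SE 0.07, edgeR adjusted p = 0.000177). On the same autosome, chr9:35500001-36000000 had 0.989 and 0.983 against 1.16 and 1.36, a log2 change of 0.34. At chr17:55000001-55500000 the levels were 0.986 and 1.05 against 1.23 and 1.30, also a log2 change of 0.34. All 3 were higher in both L1 AMO samples. The next in order were chr5:54500001-55000000, at 0.619 and 0.682 against 0.812 and 0.928, and chr7:69500001-70000000, at 0.820 and 0.863 against 1.01 and 1.10. With the offset from trans contacts only, none of these 5 bins was called by edgeR, and their log2 changes ran from 0.06 to 0.15.

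Contacts of the same bins with the strongest A bins were tested in the same way. Of the strongest B bins 108 rose and 40 fell, where 3.85% of all bins rose and 21.9% fell. The median log2 change was 0.02 over the strongest B bins and -0.10 over all bins, a difference of 0.12. Scaling by TMM moved the median over all bins to 0.01 and turned the calls over all bins from 184 risen and 1046 fallen to 650 and 319, with 156 and 6 for the strongest B bins, whose median then lay 0.16 above that of all bins. The offset from trans contacts only gave 18 risen and 6 fallen, against 197 and 253 of all bins, and the median of the strongest B bins lay 0.03 above that of all bins. A separate fit with autosomes 1, 6 and 14 left out of counts and balancing had 4 of 771 risen and 21 fallen, where 0.233% and 14.5% of the bins did. These counts depended on the libraries used. Without SCR AMO replicate 1, 18 strongest B bins rose and 23 fell, against 26 and 216 of all 4780 bins, and without SCR AMO replicate 2, 212 and 50 did, against 313 and 898. Without L1 AMO replicate 1, 32 rose and 16 fell, against 48 and 691 of all bins, and without L1 AMO replicate 2, 5 and 13 did, against 19 and 307. In the same order, the median of the strongest B bins lay 0.02, 0.18, 0.17 and 0.07 above that of all bins.

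The B-B level differed more between autosomes than between groups. With genome-wide balancing it was highest in both groups on autosome 19, the shortest, at 1.21 and 1.20 in SCR AMO and 1.20 and 1.20 in L1 AMO. In SCR AMO it was lowest on autosome 1, the longest, at 0.766 and 0.821, where L1 AMO had 1.03 and 1.09. In L1 AMO it was lowest on autosome 2, at 0.862 and 0.926, where SCR AMO had 0.811 and 0.855. On autosome 14 it was 0.853 and 0.901 against 1.11 and 1.16. Autosome 1 had the largest change, with a log2 difference of 0.42, and autosome 19 the smallest, at -0.01. Both L1 AMO values exceeded both SCR AMO values on 18 of 19 autosomes, and autosome 19 alone had them below. For single bins, this kind of separation upward was found in 49.4% of all bins. The order of autosomes depended on the balancing as well. With trans contacts only, autosome 19 was the lowest in both groups, at 1.18 and 1.17 in SCR AMO and 1.18 and 1.16 in L1 AMO. Autosome 2 was then the highest in SCR AMO, at 1.39 and 1.35.

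With genome-wide balancing and autosomes 1, 6 and 14 left out, each of the 16 others had its B-B level higher in L1 AMO, without overlap. The largest difference was then on autosome 4, at 0.806 and 0.848 against 0.910 and 0.977, a log2 difference of 0.19. On autosome 15 it was 0.896 and 0.917 against 1.00 and 1.05, a log2 difference of 0.18. The smallest was on autosome 19, at 1.20 and 1.20 against 1.23 and 1.22, a log2 difference of 0.03. With balancing of trans contacts only, over all autosomes, the L1 AMO samples were lower on 13 autosomes and overlapped with SCR AMO on 6. The trans share of the strongest B bins was lower in both L1 AMO samples on 19 of 19 autosomes. Such counts by autosome were not computed for other classes of bins, so none is read as particular to the strongest B bins.

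Pairs of autosomes were tested on their summed counts by edgeR's quasi-likelihood test, with Benjamini-Hochberg adjustment over the 4275 combinations of autosomes and quintiles. Of the 171 B-B combinations 48 rose and 1 fell, where 15.0% of all combinations rose and 19.2% fell. Scaling by TMM turned all combinations from 643 risen and 822 fallen to 1170 and 909, and the B-B ones to 110 and 0, with 0 fallen at an unadjusted p under 0.05. DESeq2 called 31 risen and 0 fallen, against 429 and 506 of all combinations. Without SCR AMO replicate 1 there were 22 risen B-B combinations, of 273 risen in all, and without L1 AMO replicate 2 there were 27, of 360 in all. With autosomes 1, 6 and 14 left out, 45 of 120 rose and 0 fell, where 13.6% and 9.33% of 3000 combinations did. At an unadjusted p under 0.05 edgeR had 70 and 0, against 638 and 491 of all 3000. Of the A-A combinations 1 of 171 rose and 50 fell. When autosomes 1, 6 and 14 were dropped, 0 of 120 A-A combinations rose in edgeR, also 0 at an unadjusted p under 0.05, and 9 fell, or 7.50%, which is below the share of all combinations.

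With the offset from trans contacts only, the split turned, and 2 of 171 B-B combinations rose while 15 fell, where 1.66% and 1.80% of all combinations did. Without autosomes 1, 6 and 14 as well, 1 of 120 rose and 3 fell, where 1.13% and 1.30% did. On this scale 31 of 171 A-A combinations rose and 0 fell in edgeR, with 3 fallen at an unadjusted p under 0.05, against 444 of all 4275.

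The strongest B bins of autosomes 1 and 14 had the largest change of any pair. Their level was 0.716 and 0.809 in SCR AMO and 2.08 and 2.23 in L1 AMO, from 3980, 947, 6503 and 5511 contacts. The log2 change was 1.56 (SE 0.07, edgeR adjusted p = 1.49e-13), and it was 0.85 with the offset from trans contacts only. The next pairs also included autosome 1. With autosome 4 the level was 0.705 and 0.792 against 0.951 and 1.06, a log2 change of 0.43, and with autosome 7 it was 0.737 and 0.792 against 0.964 and 1.01, a log2 change of 0.38. With the offset from trans contacts only, these 2 pairs were at -0.05 and -0.07 and were not called.

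With genome-wide balancing, the highest B-B levels in SCR AMO belonged to pairs with autosome 19. Levels of autosome pairs are given for this balancing only. Autosomes 18 and 19 had 1.78 and 1.71 in SCR AMO and 1.68 and 1.53 in L1 AMO. Autosomes 11 and 19 had 1.65 and 1.52 against 1.51 and 1.37, and autosomes 8 and 19 had 1.50 and 1.51 against 1.46 and 1.43. All 3 were lower in both L1 AMO samples, but none was called. The pair that fell was autosomes 9 and 19, at 1.45 and 1.46 against 1.31 and 1.29, a log2 change of -0.16 (SE 0.06, edgeR adjusted p = 0.0345). The lowest levels in SCR AMO were those of autosome 1 with autosomes 3, 15 and 5, with means of 0.735, 0.743 and 0.744. In L1 AMO these means were 0.943, 0.968 and 0.962. With the offset from trans contacts only, their log2 changes turned to -0.10, -0.08 and -0.13, and autosomes 1 and 5 were called as fallen (edgeR adjusted p = 0.0234, Benjamini-Hochberg). On that scale the pair of autosomes 9 and 19 was not called (log2 change -0.11, edgeR adjusted p = 0.285).

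Neighbouring strongest B bins formed 334 blocks, of which 115 were single bins and 40 held at least 6 bins. These 40 blocks held 299 of the bins. Among them the highest level in SCR AMO with genome-wide balancing was that of chr11:90500001-93500000, at 1.31 and 1.34 in SCR AMO and 1.25 and 1.28 in L1 AMO. It was also the one block of this size that was lower in both L1 AMO samples with this balancing. With balancing of trans contacts only, it was at 1.40 and 1.40 in SCR AMO. One of the lowest blocks below, chr1:116000001-119000000, was then at 1.39 and 1.39. The order that follows is that of genome-wide balancing. Next came chr18:85500001-89000000, at 1.12 and 1.08 against 1.07 and 1.11, and chr13:116000001-120000000, at 1.07 and 1.08 against 1.03 and 1.09, both with overlap between the groups. The blocks chr9:90000001-95000000, at 0.990 and 1.01 against 0.967 and 1.04, and chr7:100000001-103000000, at 0.952 and 0.971 against 0.999 and 1.02, followed in that order. The groups overlapped in the block on autosome 9, and the one on autosome 7 was higher in both L1 AMO samples.

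With genome-wide balancing, the block with the lowest level in SCR AMO lay inside the run of autosome 6 with higher coverage in L1 AMO. This block, chr6:78500001-81500000, had 0.620 and 0.658 in SCR AMO and 0.858 and 0.895 in L1 AMO, a log2 difference of 0.46. The 3 next lowest were on autosome 1. At chr1:104000001-107000000 the levels were 0.695 and 0.767 against 0.953 and 1.00, and at chr1:109000001-112500000 they were 0.704 and 0.759 against 0.982 and 1.02. At chr1:116000001-119000000 they were 0.693 and 0.775 against 0.947 and 1.08. Together with chr1:123500001-127000000, at 0.821 and 0.843 against 1.11 and 1.21, these were also the blocks with the largest rises in level. All of them sat where coverage was higher in L1 AMO. With balancing of trans contacts only, none of them was higher in both L1 AMO samples. At chr1:104000001-107000000 the levels were then 1.34 and 1.32 against 1.30 and 1.26, lower in both. At chr1:116000001-119000000 they were 1.39 and 1.39 against 1.32 and 1.34, also lower in both. In the other blocks with the largest rises the groups then overlapped. The fifth lowest, chr2:94500001-97500000, had 0.755 and 0.739 against 0.825 and 0.869, a log2 difference of 0.18.

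The longest block was chr5:54500001-61000000, 6.5 Mb and 13 bins, with levels of 0.737 and 0.784 in SCR AMO and 0.828 and 0.888 in L1 AMO. The 12 bins of chr4:63500001-69500000 had 0.770 and 0.812 against 0.847 and 0.905. The 11 bins of chr17:57500001-63000000 had 0.916 and 0.938 against 0.956 and 1.01. All 3 were higher in both L1 AMO samples, but lower in both with balancing of trans contacts only. Also higher with genome-wide balancing were chr3:70000001-75000000, with a log2 difference of 0.16, and chr6:101500001-106500000, with 0.10, each of 10 bins. In both of these the groups overlapped with balancing of trans contacts only. The third block of 10 bins is chr9:90000001-95000000, named above, where the groups overlapped. A further block on autosome 6, chr6:44000001-47000000, outside the run of higher coverage, was at 0.950 and 0.947 against 0.938 and 0.994, with overlap.

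Of the 40 blocks, 31 were higher and 1 was lower in both L1 AMO samples, and in 8 the groups overlapped. With balancing of trans contacts only, 23 were lower and 0 higher by the same reading of the sample values. No test was run, and the share among runs of other bins was not computed. The counts of blocks are therefore not read as particular to the strongest B bins. Among the blocks left when autosomes 1, 6 and 14 were dropped, 23 of 28 were higher, 0 lower and 5 overlapped. The largest difference was then at chr4:50000001-53000000, at 0.858 and 0.850 in SCR AMO and 0.977 and 1.05 in L1 AMO, a log2 difference of 0.24. It was followed by chr5:54500001-61000000, the longest block, with 0.23, and by chr2:80500001-83500000, with 0.23.

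With genome-wide balancing, level depended on where a bin lay along its autosome. Levels by position are given for this balancing only. Each autosome was divided into a proximal, a middle and a distal part of equal length, counted from the centromeric end of these acrocentric chromosomes. The strongest B bins were 177 of 1497 bins in the proximal part, 487 of 1636 in the middle and 291 of 1647 in the distal part. Proximal bins among themselves had levels of 1.15 and 1.14 in SCR AMO and 1.19 and 1.25 in L1 AMO. Middle bins among themselves had 0.836 and 0.872 against 0.933 and 0.987. Both kinds were higher in both L1 AMO samples. Distal bins among themselves had 1.13 and 1.14 against 1.11 and 1.15, and the groups overlapped. Proximal with distal bins had 0.829 and 0.867 against 0.927 and 0.964, the lowest level of any combination in SCR AMO and a log2 difference of 0.16.

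Proximal pairs and distal pairs of all kept bins also had higher levels than middle pairs. The level of all kept bins was 1.23 and 1.21 for proximal pairs, 0.883 and 0.899 for middle pairs and 1.24 and 1.21 for distal pairs in SCR AMO. In L1 AMO, proximal pairs of all bins were at 1.24 and 1.24 and middle pairs at 0.911 and 0.923, higher in both samples. Distal pairs of all bins were at 1.16 and 1.14 in L1 AMO, lower in both samples. Without autosomes 1, 6 and 14, the distal pairs of strongest B bins were at 1.15 and 1.16 in SCR AMO and 1.11 and 1.15 in L1 AMO, lower in both L1 AMO samples with a log2 difference of -0.03, while the proximal and the middle pairs stayed higher in L1 AMO.

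With genome-wide balancing, single strongest B bins spread widely in their level with the others. In SCR AMO replicate 1 the levels ran from 0.548 to 2.07 with a median of 0.882, and in SCR AMO replicate 2 from 0.549 to 2.19 with a median of 0.914. In L1 AMO replicate 1 they ran from 0.698 to 2.15 with a median of 0.968, and in L1 AMO replicate 2 from 0.743 to 1.92 with a median of 1.01. The highest bin in SCR AMO was chr17:39500001-40000000, at 2.07 and 2.19 in SCR AMO and 2.15 and 1.92 in L1 AMO. The lowest in SCR AMO replicate 1 was chr6:80000001-80500000, in the run with low coverage in SCR AMO, at 0.548 and 0.552 against 0.771 and 0.877. These 2 bins were picked after their values were seen. The spread was narrower with balancing of trans contacts only. The levels then ran from 0.998 to 1.59 and from 0.898 to 1.58 in the SCR AMO replicates. In the L1 AMO replicates they ran from 0.972 to 1.52 and from 0.971 to 1.71. Levels of the same bins with all autosomal bins also spread widely with genome-wide balancing, from 0.482 to 2.38 in SCR AMO replicate 1.

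Both L1 AMO samples were above both SCR AMO samples in 571 of 955 strongest B bins, or 59.8%, and below them in 39, where 49.4% and 8.12% of all bins were. The same held without autosomes 1, 6 and 14 for 473 and 18 of 771, where 49.8% and 6.11% of the bins did. With balancing of trans contacts only it held for 63 upward and 376 downward, where 20.0% and 18.6% of all bins did. Across the 955 bins the levels of the SCR AMO replicates had a Pearson r of 0.903, and those of the L1 AMO replicates one of 0.863. Between groups r ran from 0.653 to 0.727. The bins share libraries, chromosomes and depth, so these values describe the maps and carry no p.

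The limit that set the bins apart was not a step in the data. The last bin inside it on each autosome had a median eigenvector value of -0.0708, and the first bin outside one of -0.0705. The 19 bins just inside had levels with the strongest B bins of 0.923 and 0.955 in SCR AMO and 0.980 and 1.03 in L1 AMO. The 19 just outside had 0.896 and 0.908 against 0.964 and 1.03. Within the strongest B bins, the lowest 10% of each autosome had levels among themselves of 0.910 and 0.936 in SCR AMO and 0.984 and 1.03 in L1 AMO, and the other bins among themselves 0.898 and 0.929 against 0.984 and 1.03. The rank inside the set therefore made little difference to the level. Of the 955 bins, 91.9% stayed in the lowest 20% by the eigenvector of SCR AMO replicate 1 alone, 92.9% by that of SCR AMO replicate 2 and 82.2% by that of the L1 AMO samples.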

How the data were processed

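The authors made sisHi-C libraries and processed the read pairs with HiC-Pro (2.7.1b and mm9 per the labels, while the paper gives another version). The deposited matrices give unnormalised counts of contacts between 500-kb bins. The 2 matrices of each L1 AMO sample were added. Bins were kept where coverage reached 0.1 of the chromosome median in all 4 samples, which left 5093 of 5322 (autosomes and X). Balancing was by iterative correction, contacts within a bin included (22 iterations). Cis maps were divided by the mean at each distance, and eigenvector 1 of the mean SCR AMO map was signed by the study's PC1 track (r from 0.414 to 0.821 per autosome). Trans counts were tested with edgeR 4.0.16 (quasi-likelihood, mean of at least 10 counts, Benjamini-Hochberg) in R 4.3.3, with DESeq2 1.42.0 as an alternative. The SE printed with a log2 change was derived from the quasi-likelihood F of the same test, so it is no separate estimate. Maps used Python 3.11.15 with numpy 2.4.6 and pandas 2.3.3. The code was tested on simulated data.

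The regions and comparisons were chosen with earlier results of these data known. Regions are named by rule: among blocks of at least 6 bins, the 5 highest, 5 lowest, 5 with the largest rise, 5 with the lowest change and 5 longest; the 5 bins of lowest p in each direction; extreme autosomes; and 3 extreme autosome pairs of each kind. The H3K9me3 ChIP-seq samples were not used here. With no mm9 genome or annotation at hand, genes and repeats in the bins were not analysed here.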

Additional observations from a re-analysis of the deposited data

How the results depend on the processing

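Of 217 alternatives, 134 left the result the same, 42 made it weaker, 12 stronger, 3 moved it and 26 reversed it; the cause was not tested for those that changed. The B-B level kept its direction in 19 alternatives and was reversed in 3, and the trans share stayed the same in 11 of 11. Where the groups did not overlap, leaving out a library or pairing samples of the same number could not turn the direction. For such results these settings were no check. The changed filters on low counts removed no bin or combination and gave the main counts again. All values below are log2 differences or counts of calls.

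With no balancing, and the expected value from raw trans coverage, the B-B level was at -0.12, the A-A level at 0.14, their ratio at -0.25 and the level with all autosomal bins at -0.0432. Balancing of trans contacts only gave -0.0461, 0.0648, -0.111 and -0.00231. Together with autosomes 1, 6 and 14 left out it gave -0.0456, 0.0748, -0.120 and -0.00373, and -0.00510 for A-B. With contacts within a bin left out, B-B was at 0.0797, and A-A was at -0.0530 and the ratio at 0.133, both with overlap.

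The A-A level overlapped between groups at -0.0902 for the lowest and highest 10% of bins, at -0.10 for a coverage limit of 0.5, at -0.10 for the eigenvector of all 4 samples and of SCR AMO replicate 2, at -0.0930 for that of L1 AMO, at -0.11 without the top 0.1% of bin pairs, at -0.11 with L1 AMO matrix 5 alone and at -0.0884 without autosomes 1, 6 and 14. The A-B level, which overlapped in the main analysis, was at -0.00247 with the eigenvector of all 4 samples, at -0.0193 with that of L1 AMO and at -0.00832 without autosomes 1, 6 and 14. The cis B-B value was at -0.0589 beyond 20 Mb, at -0.0419 with the eigenvector of L1 AMO and at -0.0627 without autosomes 1, 6 and 14.

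Strongest B bins called for contacts with each other (220 rose, 1 fell) were 217 and 17 by TMM, 3 and 10 with the trans-only offset, 88 and 0 by DESeq2, 233 and 0 with the eigenvector of the 4 samples (961 and 31 of all 4780 bins), 186 and 2 with L1 AMO matrix 5 (722 and 23 of all), 186 and 0 with matrix 6 (750 and 15 of all), 107 and 0 without autosomes 1, 6 and 14, and 0 and 0 with the trans-only offset as well. At an unadjusted p under 0.05, the counts fallen were 0 by DESeq2, 3 in edgeR with that eigenvector, 4 with matrix 6, 1 without these autosomes and 93 with the trans-only offset as well, where 6 rose. Called for contacts with the strongest A bins (108 rose, 40 fell) were 156 and 6 by TMM, 18 and 6 with the trans-only offset, 23 and 2 by DESeq2 (28 and 134 of all), 70 and 28 with L1 AMO matrix 5 (116 and 794 of all), 4 and 21 without autosomes 1, 6 and 14, and 6 and 6 with the trans-only offset as well (194 and 186 of all 3861). B-B combinations of autosomes (48 rose, 1 fell) were 110 and 0 by TMM, 2 and 15 with the trans-only offset, 31 and 0 by DESeq2, 53 and 2 with the eigenvector of the 4 samples (688 and 901 of all 4275), 45 and 0 without autosomes 1, 6 and 14, and 1 and 3 with the trans-only offset as well. For those with 0 fallen, 0 fell at an unadjusted p under 0.05.

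With genome-wide balancing and each library left out in turn, B-B ran from 0.10 to 0.17 and A-A from -0.17 to -0.05. A-B ran from -0.0538 to 0.0692 (with -0.0178 without L1 AMO replicate 2) and the ratio from 0.15 to 0.33. Libraries were not left out in turn with the other kinds of balancing. Strongest B bins risen ran from 79 (without SCR AMO replicate 1) to 241, with 114 without L1 AMO replicate 2, and fallen from 0 to 1 in edgeR, with 4 to 9 at an unadjusted p under 0.05. For contacts with the strongest A bins, risen ran from 5 to 212 (18 without SCR AMO replicate 1, 32 without L1 AMO replicate 1) and fallen from 13 to 50 (23 and 16 for the same libraries). B-B combinations risen ran from 22 to 57 (27 without L1 AMO replicate 2) and fallen from 0 to 3 in edgeR, with 0 to 3 at an unadjusted p under 0.05.

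No label ties samples of the same number to one experiment. Whether the numbers mark the independent transfection experiments of the paper is not stated in the labels. With a replicate block, 279 strongest B bins rose and 1 fell for contacts with each other (1185 and 75 of all 4780 bins), 152 and 80 for contacts with the strongest A bins (319 and 2068 of all), and 66 and 3 B-B combinations did (951 and 1356 of all 4275). In the pairing check, deviations of samples with the same number had an r of 0.133 over the 955 bins and of 0.0731 over 771.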
